A study of Rattus norvegicus with 6 samples.

Results

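The genes described here are 35 genes of glucose uptake, glycolysis, the handling of pyruvate and lactate, and the response to low oxygen, followed in adult rat hippocampal NSCs in which *Derl1* had been knocked down. They were chosen by name, and a member is a row of the deposited tables that carries one of the 35 symbols. Of the 35, 34 had a row among the 17315 rows of the tables, *Egln1* was not analysed here, and 33 were tested among 10331 genes in all. The untested member was *Slc16a3*, whose mean fell under the limit of 1 TPM used for all genes. TPM is the share of a gene's transcripts among all transcripts of a sample, scaled to 1000000 and corrected for transcript length, and it keeps no read numbers, so the depth behind a value is unknown.

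The cells were HCN, a cloned NSC line that stems from the adult rat hippocampus. All 6 samples went through reverse transfection, then grew in proliferation medium for 2 days, and then received 50 ng/mL BMP4 with 10 ng/mL bFGF for 2 days, which brings such cells into quiescence. The 3 siControl samples received a control duplex and the 3 siDerl1 samples received 1 duplex against *Derl1*, which encodes Derlin-1, a membrane protein of the ER that takes part in the removal of misfolded proteins. Both groups carried the numbers 1 to 3 in their labels, and values below are given for samples 1, 2 and 3 in turn. The labels do not say whether the numbered samples were separate cultures, so p-values measure the spread between these samples, which may be technical.

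Glycolysis splits glucose into pyruvate in the cytosol, and lactate dehydrogenase can then reduce pyruvate to lactate, while pyruvate dehydrogenase kinases hold pyruvate back from the mitochondria. When oxygen is low, or when prolyl hydroxylases are inactive, the transcription factor HIF-1α escapes degradation and raises many genes of this route together with *Vegfa*, *Bnip3* and other targets. Cultured NSCs that divide are known to lean on glycolysis, and the route is turned down as they become neurons.

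The knockdown was read first. *Derl1* measured 122, 132 and 128 TPM after siControl and 44.9, 70.8 and 74.0 TPM after siDerl1, without overlap (two-sided p = 0.1 by an exact permutation test, which cannot go lower with 3 samples a group). limma gave a log2 fold change of −1.03 with an adjusted p of 0.497, or 0.00884 once the sample number was a block (in the blocked fit 0.104 when low genes were not filtered, and 0.229 without an intensity trend). Deviations from the group means correlated at 0.697 across genes between the 2 samples numbered 1. Of the NSC markers, 7 of 8 were at 1 TPM or more, with *Prom1* under it, while 4 of 5 microglial and 4 of 4 endothelial markers were under 1 TPM in every sample. *Mbp*, a gene of oligodendrocytes, lay between 245 and 340.4 TPM, and *Mog* and *Mag* of the same list were under 1 TPM in every sample. In bulk RNA, fewer cells of a type and less RNA per cell cannot be told apart.

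Most of the pathway was abundant. All members together held between 1.5% and 2.06% of the TPM of a sample, and the sum was lowest in the 2 samples numbered 1 (14983 TPM in siControl 1 and 17251 TPM in siDerl1 1, against 19025 to 20552 TPM in the other 4). On the TPM scale, which allows genes to be compared, *Gapdh* was the highest member with a mean over the 6 samples of 4192 TPM, followed by *Ldha* (2408) and *Aldoa* (2048). The lowest tested members were *Pdk4* (1.92 TPM) and *Car9* (2.87 TPM). Several of the abundant enzymes, among them *Gapdh*, *Pgk1*, *Ldha*, *Aldoa*, *Tpi1*, *Eno1* and *Pgam1*, have processed pseudogenes in rodents, between which RSEM may split reads, so their levels are uncertain to that extent.

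**Figure D1:**
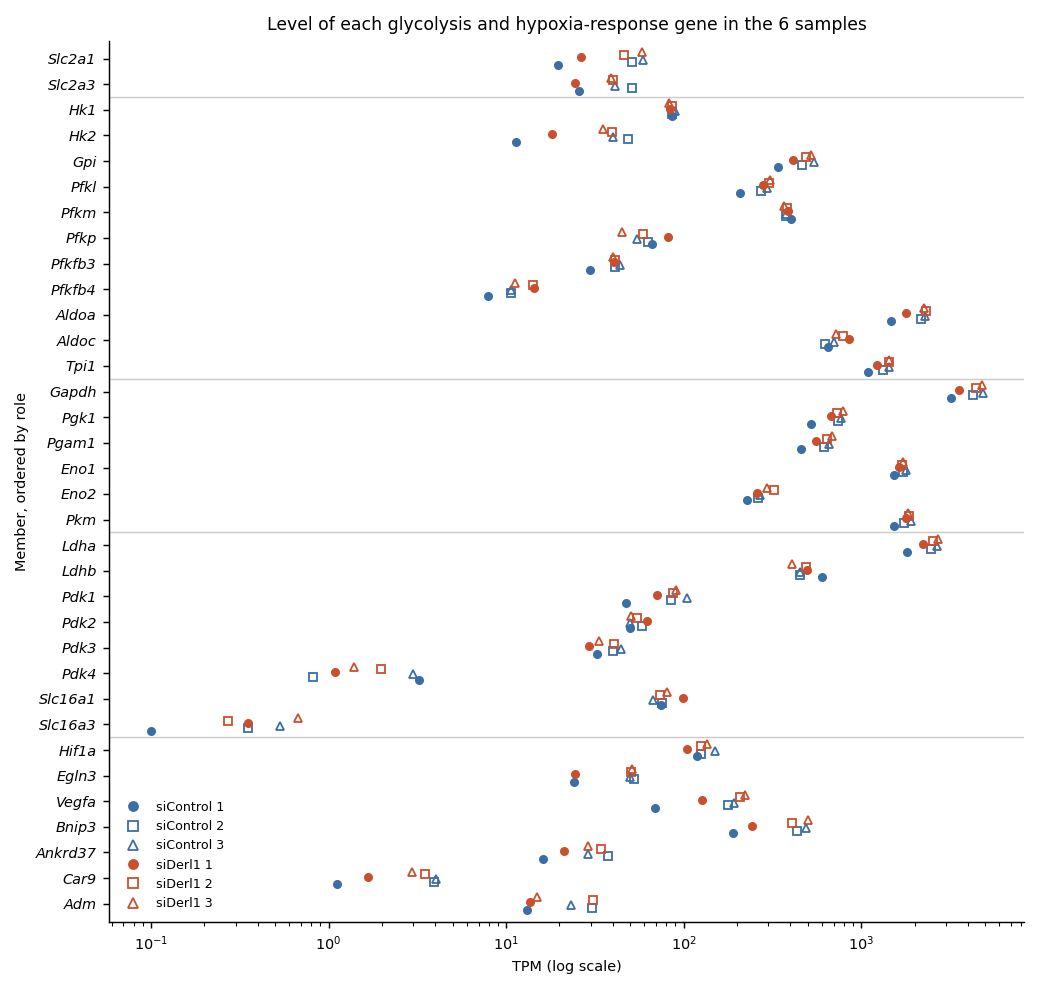
TPM of the 34 members with a row, on a log axis, with 1 symbol per sample. Blue is siControl, red is siDerl1, filled circles are the samples numbered 1 and open symbols those numbered 2 (squares) and 3 (triangles), and grey lines part the role groups. The members span from 0.10 TPM (*Slc16a3* in siControl 1) to 4849 TPM (*Gapdh* in siControl 3), and for many of them the filled circles lie to the left of the open symbols.

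The members differed by the number on the sample. When the number was tested with limma in a fit that also held the group, 19 of 33 members (57.6%) had an adjusted p under 0.05, against 10.6% of all genes tested (1092 of 10331). The test treats the 3 numbers alike, and number 1 was the one that stood apart most often. In 21 of 33 members both samples numbered 1 were below all 4 others, against 17.0% of all genes, and in 3 members (*Pfkm*, *Pfkp* and *Ldhb*) both were above them, against 15.7%. Both samples numbered 2 were below the others in 0 members (3.94% of all genes) and above them in 2 (5.21%), and those numbered 3 were below in 3 (11.3%) and above in 10 (9.25%). The median member was 0.31 higher in number 2 than in number 1 and 0.34 higher in number 3, on the log2(TPM + 1) scale, where the medians over all genes were 0.01 and 0.00. Between numbers 2 and 3 the median member differed by 0.03.

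The calls by number rested on how limma estimated the spread, since each number held 1 sample per group and the fit left 2 residual degrees of freedom per gene. Without an intensity trend in that estimate, 2 members (*Egln3* and *Bnip3*) had an adjusted p under 0.05, among 2.44% of all genes. Without the filter on low values 10 members had one, among 4.61% of genes. Leaving out 1 sample at a time gave between 15 and 24 members, with 15 when either siControl 3 or siDerl1 3 was left out. A pseudocount of 0.1 and median-of-ratios scaling gave 17 members each, without *Pfkp* and *Eno2*, both at an adjusted p of 0.0499 in the fit reported here. *Pfkp* was also lost without siDerl1 3, and *Eno2* without siControl 3 and without each of the siDerl1 samples. *Pgk1* was lost without siControl 1, siControl 3 or siDerl1 3, *Hif1a* without siControl 3 or siDerl1 3, and *Pdk1* without siControl 3. With median-of-ratios scaling both samples numbered 1 were below the other 4 in 20 members (16.6% of all genes), without *Eno2*.

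Both glucose transporters were lower in the samples numbered 1. *Slc2a1* encodes GLUT1, the widespread basal transporter, and its TPM were 19.5, 51.1 and 59.3 in siControl NSCs and 26.6, 46.4 and 58.1 in siDerl1 NSCs. *Slc2a3*, which encodes the high-affinity transporter GLUT3 of neurons, was at 25.9, 51.0 and 41.3 TPM (siControl) and 24.6, 40.2 and 38.9 TPM (siDerl1). Neither set of sample 1 values overlapped the other 4, and the 4 samples numbered 2 and 3 had on average 2.33 times the *Slc2a1* and 1.70 times the *Slc2a3* of the samples numbered 1. The differences of number 2 and of number 3 from number 1 were 1.06 and 1.33 on the log2 scale for *Slc2a1* (standard error 0.14, adjusted p = 0.000751 by limma). For *Slc2a3* they were 0.82 and 0.65 (standard error 0.11, adjusted p = 0.00301). By siRNA, *Slc2a1* had a log2 fold change of 0.09 (standard error 0.44) and *Slc2a3* one of −0.16 (0.28).

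Of the 11 members of upper glycolysis, 5 passed the test of number: *Hk2*, *Gpi*, *Pfkp*, *Aldoa* and *Tpi1*. The hexokinases, which phosphorylate glucose, parted in this respect. *Hk2*, the inducible hexokinase, was at 11.3, 48.4 and 40.1 TPM in siControl and 18.2, 39.3 and 35.2 TPM in siDerl1. Its differences from number 1, 1.54 and 1.33, were the highest of any member in number 2 and level with *Slc2a1* in number 3 (standard error 0.20, adjusted p = 0.00258 from limma). *Hk1*, the housekeeping hexokinase, lay between 82.6 and 90.0 TPM in all 6 samples, with differences of 0.02 and 0.02 (standard error 0.07, adjusted p = 0.978).

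*Gpi*, which turns glucose phosphate into fructose phosphate, was at 338, 465 and 541 TPM in siControl and 413, 488 and 519.8 TPM in siDerl1 (adjusted p of number 0.00837 from limma). *Aldoa*, the main aldolase here, was at 1470.2, 2164 and 2289 TPM (siControl) and 1788, 2308 and 2267 TPM (siDerl1) (0.00312). *Tpi1*, which interconverts the triose phosphates that aldolase makes, was at 1095, 1325 and 1428 TPM (siControl) and 1232, 1429 and 1432 TPM (siDerl1) (0.0164). In all 3 genes both samples numbered 1 were below the other 4, and siControl 1 was the lowest sample.

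The phosphofructokinases, which carry out the committed step, differed among themselves. *Pfkp*, the platelet type, was at 66.6, 62.7 and 54.9 TPM in siControl and 81.7, 59.1 and 45.1 TPM in siDerl1, and it was lower in numbers 2 and 3 than in number 1, by differences of −0.27 and −0.56 (standard error 0.12, adjusted p = 0.0499 from limma). *Pfkl*, the liver type, was at 207, 273 and 296 TPM (siControl) and 279.8, 304 and 305 TPM (siDerl1), lowest in siControl 1 (adjusted p of number 0.0823). *Pfkm*, the muscle type and the most abundant of these, stayed between 368 and 404 TPM. *Pfkfb3* and *Pfkfb4* encode the enzymes that set the level of the fructose bisphosphate that activates phosphofructokinase. *Pfkfb3* ranged from 29.8 to 43.7 TPM, with siControl 1 the lowest, and had an adjusted p of number of 0.401.

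In lower glycolysis 5 of 6 members had both samples numbered 1 below the other 4, and 4 passed the test of number. *Gapdh*, the dehydrogenase that yields NADH and the member most often used as a reference gene, was at 3226, 4293 and 4849 TPM in siControl and 3541, 4413 and 4829.7 TPM in siDerl1. The 4 samples numbered 2 and 3 had 1.36 times its level in number 1, and the differences of 0.36 and 0.52 had a standard error of 0.05 (adjusted p = 0.000886 from limma). By siRNA its log2 fold change was 0.06 (standard error 0.17). *Pgk1*, the first ATP-yielding kinase of the route, was at 524, 742 and 769 TPM (siControl) and 677, 735 and 787 TPM (siDerl1) (adjusted p of number 0.0392). *Pgam1*, a mutase, was at 459, 615 and 656 TPM (siControl) and 556, 645 and 689 TPM (siDerl1) (0.00768), and *Eno2*, the neuronal enolase, at 226, 262 and 270.2 TPM (siControl) and 261, 324 and 295 TPM (siDerl1) (0.0499). For *Eno2* siDerl1 1 (260.6 TPM) was just under siControl 2 (262.3 TPM). *Pkm*, pyruvate kinase, was at 1536, 1749 and 1901 TPM (siControl) and 1795, 1855 and 1849 TPM (siDerl1), and *Eno1*, the ubiquitous enolase, between 1538 and 1784 TPM. *Pkm* and *Eno1* had the smallest differences by number in the group, at most 0.17 on the log2 scale, with adjusted p values of 0.225 and 0.208.

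Among the 7 tested members that decide between lactate and the mitochondria, *Ldha* and *Pdk1* passed the test of number. *Ldha* encodes the lactate dehydrogenase subunit that favours lactate, and it was at 1817, 2475 and 2681 TPM in siControl and 2241, 2534 and 2698 TPM in siDerl1 (adjusted p = 0.0136 from limma). *Ldhb*, the subunit that favours pyruvate, had the reverse order, with 600.2, 453 and 451 TPM (siControl) and 496, 486 and 407 TPM (siDerl1) and both samples numbered 1 above the other 4 (adjusted p = 0.0582). *Pdk1*, the kinase that HIF-1 is known to raise, was at 47.6, 85.3 and 104 TPM (siControl) and 70.4, 86.7 and 90.1 TPM (siDerl1), with differences of 0.56 and 0.73 from number 1 (standard error 0.15, adjusted p = 0.0292). The other kinases did not pass. *Pdk2* ranged from 49.9 to 62.5 TPM, *Pdk3* from 29.4 to 44.4 TPM and *Pdk4*, a kinase known for its rise in fasting, from 0.82 to 3.25 TPM. *Slc16a1*, which encodes the monocarboxylate transporter MCT1, was at 74.8, 75.8 and 67.3 TPM (siControl) and 99.9, 73.7 and 80.5 TPM (siDerl1), whereas *Slc16a3*, the lactate exporter MCT4, was under 1 TPM in every sample.

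The members of the HIF pathway and hypoxia response were below in both samples numbered 1 in 7 of 7 tested genes, and 6 of the 7 passed the test of number. The median of the group was 0.99 higher in number 2 and 0.91 higher in number 3 than in number 1. *Bnip3*, a mitophagy receptor, was at 190.1, 438 and 492 TPM in siControl and 243, 406 and 505 TPM in siDerl1. *Egln3*, a prolyl hydroxylase that is itself a HIF target, was at 24.3, 52.5 and 49.6 TPM (siControl) and 24.5, 50.5 and 51.5 TPM (siDerl1). The *Egln3* values of the same number lay close together, and in both genes the samples numbered 1 had less than all others, with 2.12 and 2.09 times as much in the other 4. The adjusted p of number from limma was 0.000156 for *Bnip3* (differences 0.97 and 1.21, standard error 0.10) and 0.000193 for *Egln3* (1.05 and 1.02, standard error 0.09). These were the 2 members whose call held under every alternative run.

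*Vegfa*, the angiogenic growth factor, was at 69.2, 179 and 192 TPM in siControl and 128, 207 and 220.4 TPM in siDerl1 (adjusted p of number 0.00214 from limma). *Ankrd37*, a small ankyrin repeat protein and known HIF target, was at 16.1, 37.4 and 28.9 TPM (siControl) and 21.2, 34.2 and 28.9 TPM (siDerl1) (0.00736). *Adm*, which encodes the peptide adrenomedullin, was at 13.1, 30.3 and 23.3 TPM (siControl) and 13.7, 31.1 and 15.0 TPM (siDerl1) (0.00823). Their number 1 samples were the lowest of the 6 in each gene, and for *Ankrd37* and *Adm* both samples numbered 2 were the highest. *Car9*, a carbonic anhydrase at the cell surface, ranged from 1.12 to 4.03 TPM with the same order, and its adjusted p was 0.0632. *Hif1a* itself, whose protein is regulated mainly by degradation, varied less: it was at 119, 126 and 149.6 TPM (siControl) and 105, 125 and 136 TPM (siDerl1), with differences of 0.16 and 0.34 from number 1 (standard error 0.07, adjusted p = 0.0359).

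**Figure D2:**
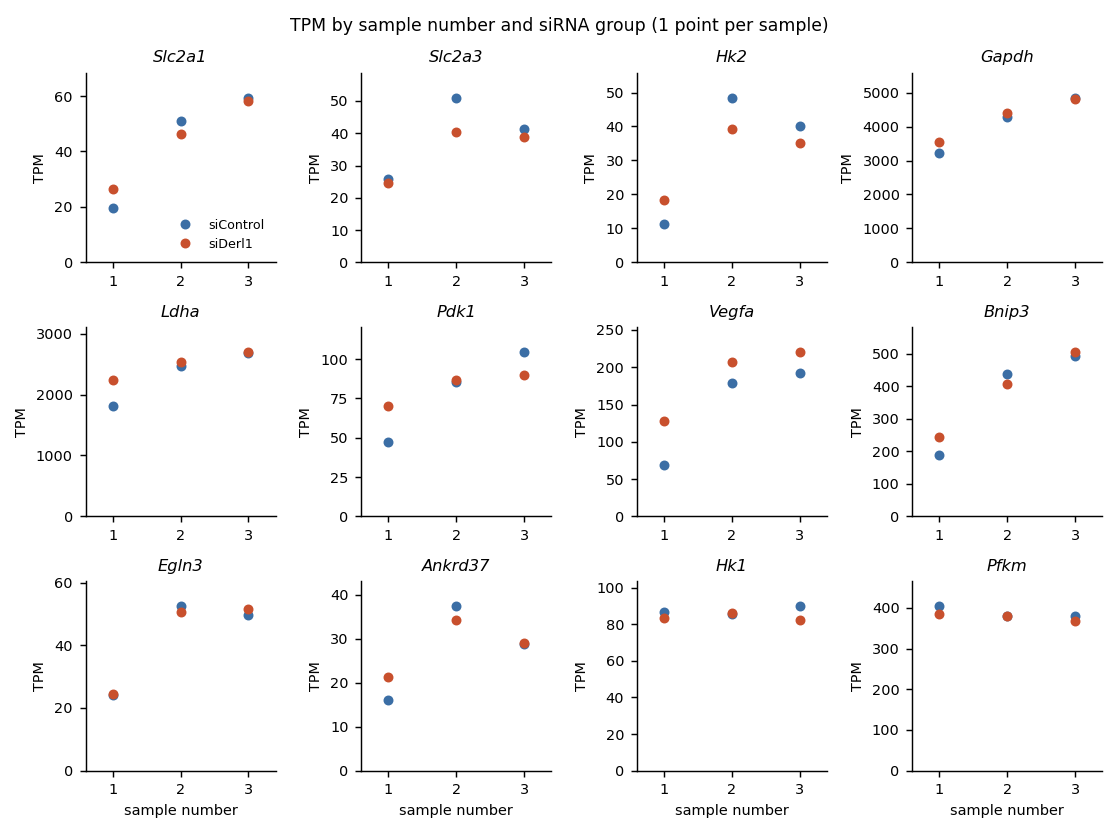
TPM (vertical axes, each from 0) against sample number for 12 members, with 1 point per sample, blue for siControl and red for siDerl1. In the first 10 panels both points at number 1 are the lowest, as for *Egln3* at 24.3 and 24.5 TPM against 49.6 to 52.5 TPM, while *Hk1* and *Pfkm* in the last 2 panels are nearly level.

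**Figure D3:**
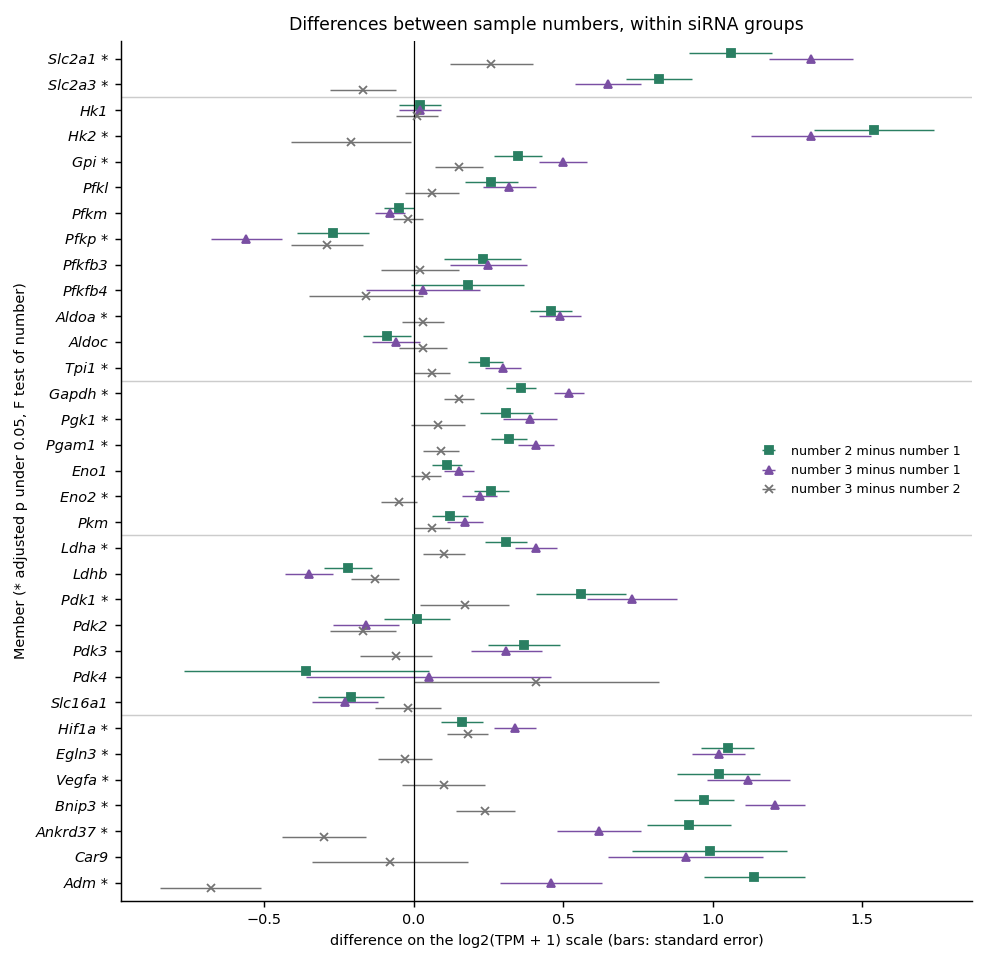
Differences between sample numbers, averaged over the siRNA groups, for the 33 tested members in the order of their roles, on the log2(TPM + 1) scale with standard errors from the limma fit. Stars mark the 19 members with an adjusted p under 0.05 in the F test of number. *Hk2*, *Slc2a1* and most members of the hypoxia response lie farthest to the right, the enzymes of lower glycolysis nearer to 0, and the grey crosses (number 3 minus number 2) on both sides of 0, down to −0.68 for *Adm*.

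What moved with the number is given here as values, and its part in these differences was not tested. All 11 tested genes of the interferon response were also lowest in the samples numbered 1, with summed TPM of 84.3 in siControl 1 and 89.0 in siDerl1 1 and up to 1454 in the other samples. By siRNA, 4 of these 11 (*Mx1*, *Mx2*, *Oas1a* and *Dhx58*) were higher in siDerl1 NSCs in limma with the block, with adjusted p values of 0.00478, 0.0319, 0.0132 and 0.046, and 0 without it. Of the 7 tested NSC markers 5 passed the test of number, in differing directions. *Sox9* and *Vim* were lower and *Fabp7* higher in number 1, read after their values had been seen. *Sox9* was at 7.50 and 9.42 TPM against 34.7 to 38.3 TPM. *Sox2* differed from number 1 by −0.10 and −0.25, and *Hes1* by −0.05 and 0.70 (adjusted p = 0.0396 and 0.0335 from limma). *Nes* (−0.13 and −0.22) and *Notch1* (0.01 and −0.05) did not pass. Of the 3 tested astrocyte markers 2 passed the test of number with higher values in number 1, *Gfap* (differences −0.61 and −0.61, adjusted p = 0.00628 from limma) and *S100b* (−0.57 and −0.62, 0.000172), while *Gja1* had differences of 0.31 and 0.50 (0.254). The hemoglobin gene *Hba1* was listed at 0, 15.35 and 0 TPM in siControl and 0, 18.25 and 19.99 TPM in siDerl1 (adjusted p of number 0.0366 from limma). Of the 10 cell cycle genes 1 passed the test of number (10.6% of all genes), and for 0 of them were both samples numbered 1 below the other 4 (17.0%).

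HIF binds the core ACGTG or GCGTG of the hypoxia response element, and the promoters of the members were searched for it. A RefSeq window from 250 bases before to 50 bases after the start of transcription (assembly GRCr8) was at hand for 31 of the 33 tested members. It held at least 1 core on either strand in 23 of them (74.2%), against 44.6% of all genes of the table and 64.4% of the tested genes. Among members called by number 12 of 17 held one (70.6%), against 58.6% of all tested genes called by number, and among the other members 11 of 14 (78.6%). No core was found in the windows of the called members *Hk2*, *Tpi1*, *Egln3*, *Vegfa* and *Adm* or of *Pkm*, *Pfkfb4* and *Pdk4*, which says only that these letters are not there. The stretches below show the core nearest to the start, of those with 12 bases on each side before the start, for 7 called members from all role groups, picked after their values had been seen. They read 5′ to 3′ in the direction of the gene, with the core in capitals, and CACGT and CACGC are the same cores on the other strand (a core that overlaps its own reverse counts in both). The reads were mapped to rn6, so the positions belong to the sequence only.
Slc2a1 (chr5:138002459-138002487, + strand): gtcccgccccggACGTGgtcctcaggccc
Aldoa (chr1:190836953-190836981, − strand): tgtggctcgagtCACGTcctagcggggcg
Gapdh (chr4:159652572-159652600, − strand): gctttacgggtgCACGTagctcaggcctc
Ldha (chr1:106508007-106508035, + strand): cgtgggttcccgCACGTccgctgggcttc
Pdk1 (chr3:77113448-77113476, + strand): cctcctgcggggGCGTGgctccagcgagg
Bnip3 (chr1:203155036-203155064, − strand): ccgcacgtgccaCACGCgccccttgttcc
Ankrd37 (chr16:53001473-53001501, + strand): gttccgggctacACGTGtcactgtttggg

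In *Slc2a1* and *Ankrd37* the core shown starts 51 and 22 bases before the start, in *Bnip3* 90 bases and in *Aldoa* 192 bases before it. *Ankrd37* has 5 cores in its window and *Ldha* 6, the highest numbers of these 7, while *Aldoa* has 1.

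The siRNA groups were then compared. In limma without a block, 0 of 33 members had an adjusted p under 0.05, and neither had any of the 10331 genes (0%). With the sample number as a block, 0 members passed among 0.552% of all genes. At an unadjusted p under 0.05, 2 members (*Pfkfb4* and *Aldoc*) were higher in siDerl1 NSCs, against 2.67% of all genes, and 0 were lower, against 4.03%. The same 2 members were the ones whose groups did not overlap with siDerl1 higher (5.09% of all genes), and 0 members had siDerl1 lower throughout (8.52%). With the block, 7 members were higher at an unadjusted p under 0.05 (6.84% of all genes): *Pfkl*, *Pfkfb4*, *Aldoc*, *Pgam1*, *Eno2*, *Slc16a1* and *Vegfa*. Again 0 were lower (8.88%). Without an intensity trend the blocked fit left 2 members higher, *Eno2* and *Vegfa* (5.93% of all genes), and 0 genes with an adjusted p under 0.05. The median log2 fold change of the members was 0.09, against −0.02 over all genes. A p that misses the threshold does not show that the levels were alike.

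*Pfkfb4*, the testis-type enzyme of its family and also a hypoxia-responsive gene, was at 7.90, 10.7 and 10.7 TPM in siControl and 14.4, 14.1 and 11.2 TPM in siDerl1. All 3 siDerl1 samples were above the highest siControl sample, in sample 3 by little (log2 fold change 0.41, standard error 0.17, and in limma an adjusted p of 0.733, or 0.264 with the block). *Aldoc*, the aldolase of brain and of astrocytes, was at 651, 626 and 707 TPM (siControl) and 856, 786 and 722 TPM (siDerl1), again without overlap (log2 fold change 0.25, standard error 0.08, adjusted p = 0.704 and 0.138). *Gfap*, another astrocyte gene, was at 47.0, 27.7 and 28.9 TPM in siControl and 66.3, 47.5 and 45.3 TPM in siDerl1 (adjusted p = 0.704, and 0.0219 with the block), and its part in the *Aldoc* values was not tested. The log2 fold changes of the other tested astrocyte markers were 0.01 for *S100b* and 0.35 for *Gja1*, and neither passed. At an unadjusted p under 0.05, *Pfkfb4* was lost without siControl 1, siDerl1 1 or siDerl1 2 (log2 fold changes 0.27, 0.34 and 0.36) and without the filter on low values, and also without both samples numbered 1 (0.21). *Aldoc* was lost without siControl 2 (0.21). With the block, *Pfkfb4* was lost when the filter or the intensity trend was left out, and *Aldoc* when the trend was.

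*Vegfa* had a log2 fold change by siRNA of 0.43 (standard error 0.40), and it was higher in siDerl1 in 3 of 3 pairs of samples of the same number. The pairs were unequal, at 0.87 on the log2 scale for pair 1 and 0.21 and 0.20 for pairs 2 and 3, and without siControl 1 its fold change was −0.04. *Eno2* was higher in 3 of 3 pairs as well, by 0.20, 0.31 and 0.13 (log2 fold change 0.21, standard error 0.10). In the fit with the block and without both samples numbered 1, *Vegfa* (0.20, adjusted p = 0.0483) and *Eno2* (0.22, adjusted p = 0.0274) were the 2 members with an adjusted p under 0.05, among 4.89% of all genes. That fit was added after seeing the data, and its 4 samples leave 1 residual degree of freedom per gene. *Slc16a1* and *Pfkl* had log2 fold changes of 0.21 and 0.21 (standard errors 0.12 and 0.13), and *Pgam1* one of 0.14 (0.14).

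The members' higher values in siDerl1 NSCs lay mostly in pair 1. In that pair 26 of 33 members were higher in siDerl1, with a median of 0.29, against 0.01 over all genes. In pairs 2 and 3 the medians were 0.01 and −0.03 (−0.03 over all genes in both). Over the 3 pairs, 8 members were higher in siDerl1 every time (15.8% of all genes): *Pfkl*, *Pfkfb4*, *Aldoc*, *Tpi1*, *Pgam1*, *Eno2*, *Ldha* and *Vegfa*. *Slc2a3* and *Hif1a* were lower every time (22.1% of all genes). In pair 1 *Pdk1* differed by 0.56, *Hk2* by 0.64 and *Slc2a1* by 0.43, whereas in pair 3 they differed by −0.21, −0.18 and −0.03. siControl 1 was below all 4 samples numbered 2 and 3 for 25 members (75.8%, against 28.6% of all genes). In 22 of these members (88.0%) siDerl1 1 was above siControl 1, against 69.4% of the genes with that order in the whole table. Choosing genes with a low siControl 1 favours this order in itself. Without siControl 1, which leaves siDerl1 1 with no partner, 17 of the 33 members had a fold change of the opposite sign, and without both samples numbered 1, 8 had, leaving aside *Egln3* with its fold change of 0.00.

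**Figure D4:**
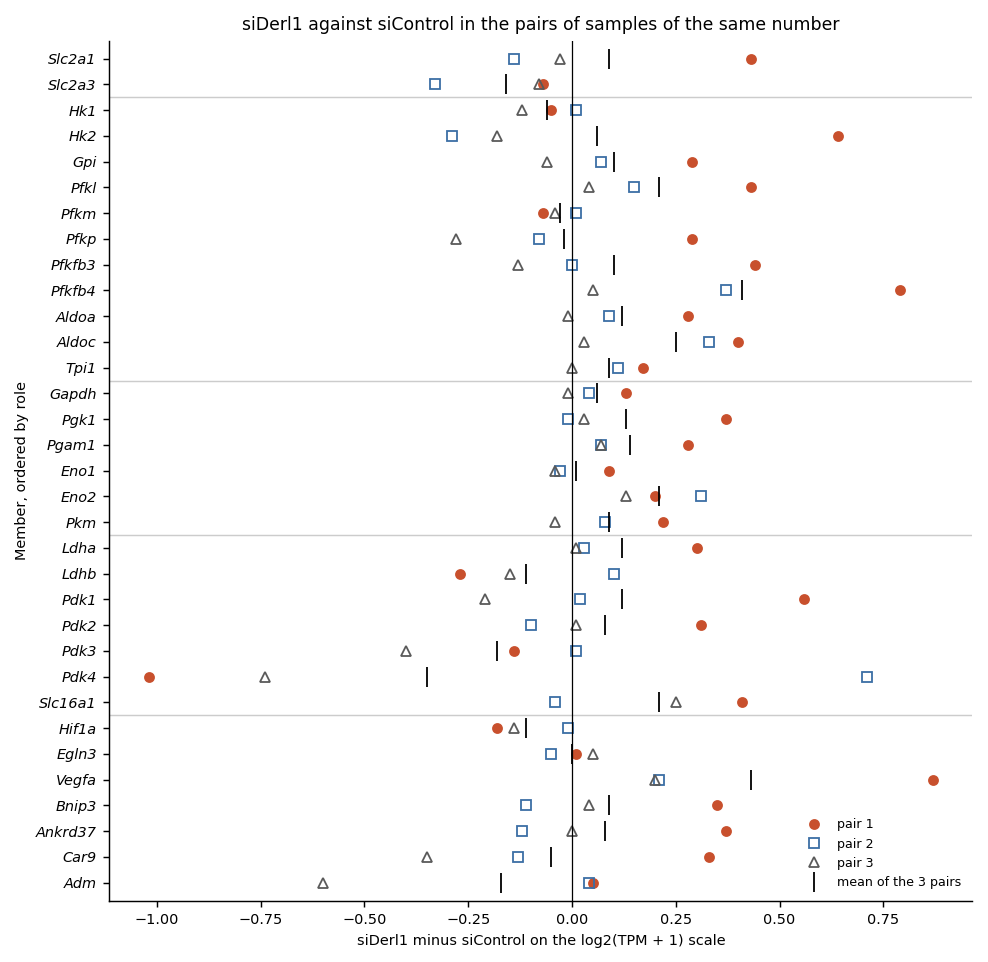
Difference between siDerl1 and siControl in each pair of samples of the same number for the 33 tested members, on the log2(TPM + 1) scale, with a black bar at the mean of the 3 pairs. Filled red circles (pair 1) lie right of 0 for 26 members, while the open symbols of pairs 2 and 3 gather around 0, and *Pfkfb4*, *Eno2* and *Vegfa* are right of 0 in all 3.

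Within families of paralogs, *Hk2*, *Aldoa*, *Ldha* and *Pdk1* held smaller shares in the samples numbered 1. *Hk2* made up 11.6% of the hexokinase TPM in siControl 1 and 17.9% in siDerl1 1, against 29.9% to 36.1% in the other 4. *Aldoa* made up 69.3% and 67.6% of the aldolase TPM in the samples numbered 1 and 74.6% to 77.6% in the others. *Ldha* made up 75.2% and 81.9% of its pair in the samples numbered 1 and 83.9% to 86.9% in the others, and *Pdk1* 35.6% and 43.1% against 46.2% to 51.8%. By siRNA, *Pfkfb4* held 20.5% ± 0.644 (SD, n = 3) of the PFKFB TPM in siControl NSCs and 24.5% ± 2.34 in siDerl1 NSCs, and *Eno2* held 13.1% ± 0.201 and 14.8% ± 1.20 of the enolase TPM. In both families the lowest siDerl1 share was above the highest siControl share. The *Pfkm* share of the phosphofructokinases was lower in siDerl1 without overlap, at 51.2% to 51.6% against 51.9% to 59.6%. In the other 6 of the 9 families the shares of every paralog overlapped between the siRNA groups, and no share was tested. *Slc16a1* held between 99.2% and 99.9% of the TPM of the 2 lactate transporters in every sample.

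**Figure D5:**
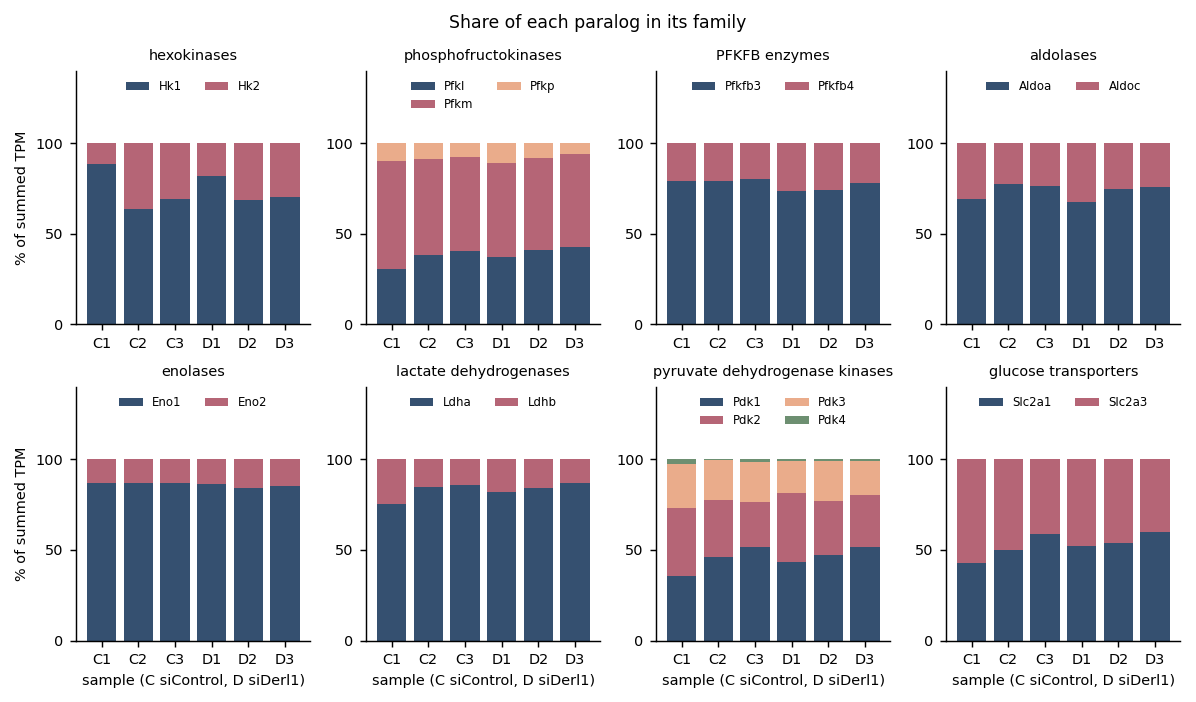
Share of each paralog in the summed TPM of its family, in percent, for 8 families, with 1 bar per sample (C1 to C3 siControl, D1 to D3 siDerl1). The *Hk2* part of the hexokinase bars is 11.6% in C1 and 17.9% in D1 and at least 29.9% in the others, while the *Eno2* part of the enolase bars is 12.8% to 13.2% in C1 to C3 and 13.7% to 16.1% in D1 to D3.

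Other genes of the pathway were read from lists that hold no member. Of 26 tested genes known to respond to hypoxia, 15 passed the test of number, against 10.6% of all genes. In 13 genes of the list both samples numbered 1 were below the other 4, against 17.0% of all genes. *Plod2*, a collagen lysyl hydroxylase, and *Higd1a*, a mitochondrial protein, were among them, with differences of 0.92 and 0.79 for number 2 (picked after their values had been seen), while *Ndrg1* had the reverse order (−0.65). Of 16 other genes of glycolysis and gluconeogenesis 2 passed, of 14 genes of pyruvate import and lactate export 1, of 9 genes of the HIF subunits and their turnover 1, and of 7 genes of the pentose phosphate pathway 0. Of 6 glucose-sensing genes 2 passed, *Txnip* and *Myc* (named for this result), both above in number 1. These counts also stand against 10.6% of all genes.

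By siRNA, 0 genes of these lists had an adjusted p under 0.05 in limma with or without the block. At an unadjusted p under 0.05, *Pgls*, *Eno3*, *G6pc3* and *Mif* were higher in siDerl1 NSCs among the 78 tested genes of these lists, and 0 were lower (2.67% and 4.03% of all genes). With the block 10 of the 78 were higher and 6 lower (6.84% and 8.88% of all genes). *Pgls*, the lactonase of the pentose phosphate pathway, was at 40.4, 39.5 and 39.7 TPM in siControl and 47.3, 48.8 and 48.5 TPM in siDerl1 (log2 fold change 0.27, standard error 0.07, adjusted p = 0.704). Its adjusted p of number was 0.999, and its groups did not overlap. *Vhl*, which marks HIF-α for degradation, was at 60.1, 63.0 and 63.3 TPM and at 55.3, 55.9 and 56.6 TPM (log2 fold change −0.15, standard error 0.06, adjusted p = 0.740), and *Hif1an*, an asparaginyl hydroxylase of HIF-α, had a log2 fold change of −0.29 (standard error 0.14, adjusted p = 0.763). Both were lower in siDerl1 NSCs without overlap of the groups, as were 8.52% of all genes. Both missed the unadjusted threshold without the block, and *Vhl* passed it narrowly with the block (adjusted p = 0.315).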

How the data were processed

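The authors made strand-specific libraries from poly(A) RNA, used Trimmomatic (0.39) for trimming, STAR (2.7.3a) for mapping to rn6 and RSEM (1.3.2) for expression estimates; versions are from the submitters' processing notes. The deposited values are TPM per gene, with no counts, so the authors' edgeR (3.28.1) test was not repeated and no counting error can be given. The members, the other lists and the tests were chosen with earlier results of these data known.

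Groups and numbers came from the labels. limma (3.58.1, in R 4.3.3; lmFit, and eBayes with an intensity trend) was run on log2(TPM + 1) over 10331 of 12822 expressed genes, those whose mean reached 1 TPM, with Benjamini-Hochberg adjustment over all of them and a threshold of 0.05. On this scale the change of a low gene comes out too small. Sample number was tested with a moderated F test in a fit that held the group. The scripts were tested on simulated data with 200 changed genes. Alternatives were a pseudocount of 0.1, no filter, a higher filter (5 TPM), median-of-ratios scaling (factors 0.989 to 1.016), no intensity trend, the number as a block, and samples left out.

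The pairing by number comes from the labels, which number both groups alike, and from this check: deviations from the group means correlated between samples of the same number at 0.697, 0.353 and 0.507. They also correlated at 0.345 between siControl 2 and siDerl1 3 and at 0.248 between siControl 3 and siDerl1 2, so numbers 2 and 3 are hardly told apart. No pair of tables held the same values.

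Per-sample TPM is given for the 2 most abundant members of each role, for members with an unadjusted p under 0.05 with or without the block, for those whose groups did not overlap and for those called by number, and the others are given by range. Of other lists, up to 3 genes with the smallest p without the block and genes with an adjusted p under 0.05 in either fit could be named. Others were named for their values by sample number, or as cell type markers, after those values had been seen. Some genes of these lists are not reported here. Promoter sequences are from RefSeq (GRCr8), where all 34 members with a row matched by identifier and 33 had a promoter window, and no rn6 coordinates were used.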

Additional observations from a re-analysis of the deposited data

How the results depend on the processing

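No depth is known for these TPM, and with 3 samples a group a single library could turn a sign. The causes of the changes below were not tested. By siRNA, 0 members had an adjusted p under 0.05 from limma in the 13 alternatives planned or in 2 of the 3 added after seeing the data. The third of these, the block without both samples numbered 1, gave 2 (*Eno2* and *Vegfa*), with 3 members lower at an unadjusted p under 0.05 (*Adm*, *Hk2* and *Slc2a3*). Over all genes the number called by siRNA went from 0 to 57 with the replicate block, to 35 without both samples numbered 1, to 2 with the block and no filter, stayed at 0 with the block and no intensity trend, and went to 506 with the block and without both samples numbered 1. Members higher at an unadjusted p under 0.05 went from 2 to 1 without the filter, to 7 with the block and to 5 with the block and no filter, and they were 2 (*Eno2* and *Vegfa*) with the block and no intensity trend. When 1 sample was left out they were 1 to 3, and those lower 0 to 1 (*Pdk4* without siControl 2). *Derl1* passed the adjusted threshold with the block at a log2 fold change of −1.03, and at −0.83 without both samples numbered 1 with or without the block, but not with the block and no filter (adjusted p = 0.104) or with the block and no intensity trend (0.229). By number, 1092 genes and 19 members became 591 and 10 without the filter and 252 and 2 without the intensity trend, and with 1 sample left out 612 to 1672 genes (without siDerl1 3 and without siControl 1) and 15 to 24 members.

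Of the 33 members, 11 kept the sign of their siRNA difference throughout: *Aldoc*, *Eno2*, *Hif1a*, *Hk1*, *Pdk3*, *Pdk4*, *Pfkfb4*, *Pfkl*, *Pfkm*, *Pkm* and *Slc16a1*. Without both samples numbered 1, with or without the block, the log2 fold changes turned to −0.08 for *Slc2a1*, −0.24 for *Hk2*, −0.06 for *Pfkfb3*, −0.03 for *Eno1*, −0.09 for *Pdk1*, −0.04 for *Pdk2*, −0.04 for *Bnip3* and −0.06 for *Ankrd37*, while *Egln3* was at 0.00 in these fits and in the fit of all samples. With 1 sample left out, the ranges were −0.40 to 0.40 for *Slc2a1*, −0.43 to 0.06 for *Slc2a3*, −0.57 to 0.43 for *Hk2*, −0.09 to 0.25 for *Gpi*, −0.24 to 0.18 for *Pfkp*, −0.06 to 0.21 for *Pfkfb3*, −0.08 to 0.24 for *Aldoa*, −0.02 to 0.18 for *Tpi1*, −0.11 to 0.18 for *Gapdh*, −0.05 to 0.23 for *Pgk1*, −0.02 to 0.24 for *Pgam1* and −0.06 to 0.05 for *Eno1*. They were −0.05 to 0.23 for *Ldha*, −0.18 to 0.03 for *Ldhb*, −0.20 to 0.36 for *Pdk1*, −0.01 to 0.15 for *Pdk2*, −0.34 to 0.35 for *Egln3*, −0.04 to 0.69 for *Vegfa*, −0.33 to 0.39 for *Bnip3*, −0.24 to 0.34 for *Ankrd37*, −0.46 to 0.17 for *Car9* and −0.53 to 0.08 for *Adm*. Of the samples left out, siControl 1 turned 17 members and siDerl1 3 turned 6, leaving aside *Egln3*.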

Other observations

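Of the other genes known to respond to hypoxia, some were followed by sample number after their values had been seen. *Hmox1*, which breaks down heme, differed from number 1 by 1.03 in number 2 and 0.89 in number 3 on the log2(TPM + 1) scale (adjusted p = 8.52e-05 from limma). *P4ha2*, a collagen prolyl hydroxylase, differed by 1.01 and 1.12 (adjusted p = 0.0116). *Gys1*, glycogen synthase, differed by 0.85 and 1.03 (adjusted p = 0.00239). All had both samples numbered 1 below the other 4. *Wsb1*, a ubiquitin ligase subunit, had the reverse order, with differences of −0.29 and −0.43 (adjusted p = 0.0105).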
